A study of Caenorhabditis elegans with 4 samples.

Results

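Sperm proteins and spermatogenesis genes were followed in whole adults of C. elegans kept with or without arsenite. The class comprised every gene whose symbol starts with msp, ssp, ssq, sss, spe or fer followed by a number, together with gsp-3 and gsp-4, which gave 63 of the 19912 genes listed. They are 30 major sperm protein genes (msp), 13 genes of the ssp, ssq and sss families (7, 4 and 2), 18 genes named after sterile mutants with defective sperm (17 spe genes and fer-1), and the 2 protein phosphatase genes gsp-3 and gsp-4. The rule uses gene names only, but it was set with earlier results of these data known. Worms of the wild-type strain N2 (Bristol), at the adult stage 48 h past the L4 larva, were kept on NGM agar with heat-inactivated OP50 bacteria. Control plates held the solvent water (0 nM arsenite, 2 libraries) and treatment plates held 100 nM arsenite (2 libraries), each library being made from total RNA of whole animals. The comparison addresses whether exposure to low-dose arsenite alters the transcripts of these worms, and the level of the sperm genes serves as a guide to how much sperm-making tissue the libraries contained.

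The N2 strain is kept as self-fertilising hermaphrodites. Their germ line first makes sperm, around the last larval stage, and then switches for the rest of life to oocytes, while the finished sperm are stored in the spermatheca. Transcripts of the sperm programme are made in developing spermatocytes, and the budding spermatids leave their ribosomes behind in a residual body. Males make sperm throughout adult life, so that sperm transcripts in a culture can come from males as well as from hermaphrodites at the sperm-making stage. Major sperm protein (MSP) builds the filaments with which the crawling sperm moves and, once released, also signals to oocytes to mature. It is encoded by many nearly identical genes.

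The number of mapped reads behind the RPKM values (read counts scaled to transcript length and to the number of mapped reads) was 30583832 to 35218389 per library, and a library's gene counts summed to 44263387 to 50472338, since a read shared by several transcripts of a gene enters more than once. For the sperm genes this concerns only fer-1, spe-9 and spe-39, with 2 transcripts each. A gene listed at 0 reads could still have up to 3 counts, or 0.0852 to 0.0981 when scaled to mapped reads (RPM), by counting error alone. Whether the replicates were grown as separate cultures is not stated, so that a p-value here reflects only how far these libraries differ, which may be technical. In bulk RNA, fewer cells of a type cannot be told apart from less RNA per cell.

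Most of the sperm genes had few or no uniquely mapped reads in these libraries. Of the 63 genes, 10 (15.9%) had no read in any library, against 6.47% of all genes, and 42 (66.7%) had fewer than 10 reads over all libraries together, against 21.4% of all genes. The median of the mean RPKM was 0.0415 for the sperm genes and 2.89 for all genes, and 59 of the 63 lay under 1 RPKM (93.7%, against 39.8% of all genes). The 4 genes above 1 RPKM were spe-39, msp-51, spe-6 and spe-15. Together spe-39, msp-51 and spe-15 held 91.7% of all counts of the class, and spe-39 alone, whose 2 transcripts share reads, held 75.9%. Genes of oocytes and of the germ line as a whole were abundant in the same libraries. All 11 genes of oocyte and eggshell, among them the RNA-binding oma-1 and the chondroitin proteoglycan genes cpg-1 and cpg-2, had a mean of 152 to 1900 RPKM, and 9 germline genes, among them the translational repressor gld-1 and the Notch receptor glp-1, had 25.4 to 341 RPKM. Neither list has a gene under 1 RPKM.

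**Figure D1:**
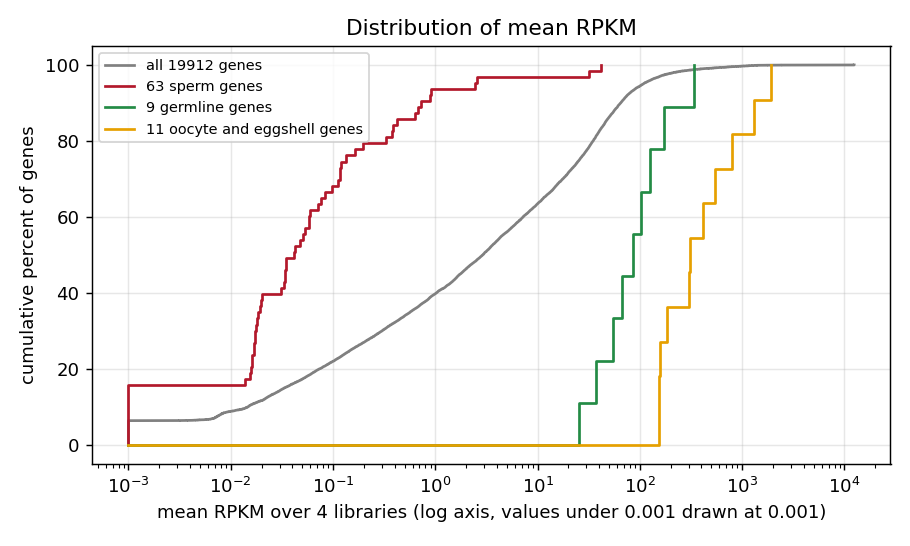
Cumulative percent of genes (y axis) against the mean RPKM over 4 libraries (x axis, log scale, values below its left end drawn there) for all 19912 genes, the 63 sperm genes, 9 germline genes and 11 oocyte and eggshell genes. The sperm genes lie to the left of all genes, with 93.7% of them under 1 RPKM, while the germline and oocyte genes lie above 25 RPKM.

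The 30 msp genes consist of a single exon each and lie on chromosomes II (13 genes) and IV (17 genes) of WBcel235. The 13 on chromosome II lie between 4785898 and 5810330, and those on chromosome IV lie in a group of 8 genes between 5055631 and 5316906 and a group of 9 between 9689015 and 10143740. The annotation gives 28 of the 30 the same exonic length of 384 nt. The authors counted only uniquely mapped reads, so that a read from a stretch shared by several copies is in no count. The count of each msp gene is therefore uncertain, and a count of 0 limits only the reads that are unique to that gene.

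One msp gene stood far above the rest. The gene msp-51, on chromosome IV from 5294957 to 5295340 on the minus strand, had 494 reads in control replicate 1 and 416 in control replicate 2, next to 465 and 508 with arsenite. This corresponds to 32.6, 30.0, 32.2 and 31.8 RPKM in the same order, so that all 4 libraries were alike and more than 78% of all genes had a lower mean (percentile 78.3). With genes of piRNAs, a class of small RNAs, left out of the search, no exon of another annotated gene overlaps msp-51. In the same search the genes next to msp-51 are nlp-47 and ZK354.6. The neuropeptide precursor gene nlp-47 ends 1303 bp before msp-51 (mean 6.72 RPKM), and ZK354.6 lies 578 bp beyond it (mean 0.027 RPKM). Where on msp-51 the reads lie cannot be read from a table of counts per gene.

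The second msp gene by level was msp-31, on chromosome II from 4916179 to 4916562, with 13 and 9 reads in the controls and 10 and 9 with arsenite, or 0.845, 0.638, 0.681 and 0.554 RPKM. It lies inside an intron of the alpha-glucosidase gene aagr-2, on the same strand, which had a mean of 145 RPKM. Whether intronic reads of aagr-2 enter the count of msp-31 was not tested. None of the remaining 28 msp genes had more than 4 reads in a library. Of all 30, 8 had no read in any library, and 18 had 1 to 4 reads over all libraries together. The genes msp-40, with 1 and 2 reads in the controls and 3 and 1 with arsenite, and msp-76, with 3 and 0 and then 4 and 0, had 7 each.

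Summed over the 29 msp genes without msp-51, which was set aside after its values were seen, the counts were 24 in control replicate 1 and 12 in control replicate 2. They were 35 in arsenite replicate 1 and 19 in arsenite replicate 2. Scaled to the total count of the library (CPM), these sums were 0.504 and 0.271 in the controls and 0.769 and 0.376 with arsenite, with exact 95% Poisson intervals, which cover counting error only, of 0.323 to 0.751, 0.14 to 0.474, 0.535 to 1.07 and 0.227 to 0.588. The groups overlapped, as arsenite replicate 2 lay below control replicate 1, and in both groups replicate 1 lay above replicate 2. Without msp-31 as well, 28 genes gave 11 and 3 counts in the controls and 25 and 10 with arsenite, and again control replicate 1 lay above arsenite replicate 2. The number of the 30 msp genes with at least 1 read was 10 and 4 in the controls and 16 and 10 with arsenite. Over all 63 sperm genes it was 34 and 30 in the controls and 44 and 35 with arsenite. Both arsenite libraries lay above both controls over the 63 genes, with 35 in arsenite replicate 2 next to 34 in control replicate 1. Among the msp genes these libraries were equal, at 10. Arsenite replicate 2 had the most mapped reads (35218389) and control replicate 2 the fewest (30583832). The same number over all genes listed was not taken, and the difference was not tested. Of 9 markers of male somatic cells, 8 were found in the table, and their summed RPKM was 2.04 and 2.03 in the controls and 1.66 and 2.12 with arsenite. Most of it came from cwp-4, with 57 and 43 reads in the controls and 41 and 49 with arsenite (mean 1.07 RPKM), and from the protease gene try-5, with 19 and 22 reads and then 18 and 33 (mean 0.701 RPKM). Both lie above the median of the sperm genes (0.0415 RPKM), as does cwp-5 (mean 0.107 RPKM). The median of the 8 markers was lower, at 0.023 RPKM. The 6 markers other than cwp-4 and try-5 had 0 to 11 reads in a library. Among them are the sensory channel genes lov-1 (mean 0.0152 RPKM) and pkd-2 (mean 0.0111 RPKM). The part of male cells in the msp reads was not tested.

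**Figure D2:**
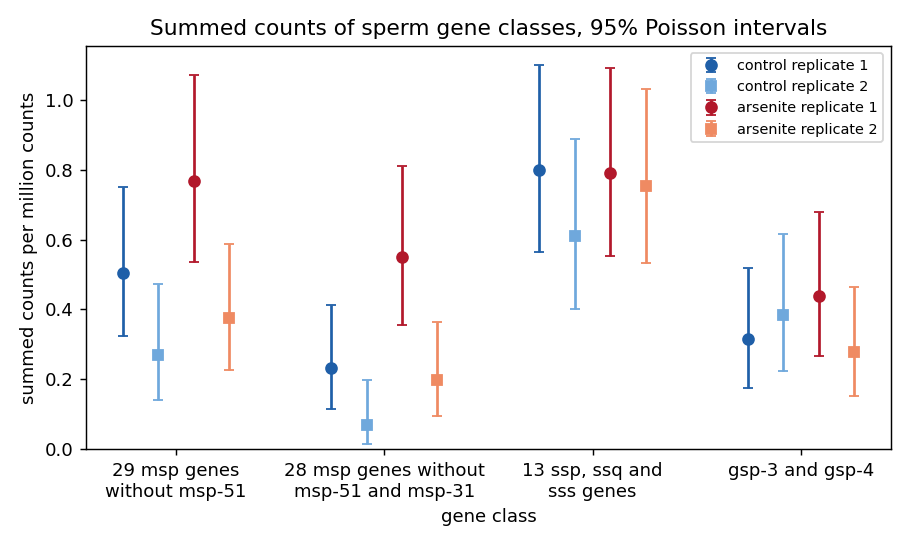
Summed counts scaled to the library total (CPM, y axis) of 4 groups of sperm genes (x axis) in each library, with exact 95% Poisson intervals as bars. The 29 msp genes without msp-51 run from 0.271 in control replicate 2 to 0.769 in arsenite replicate 1, with overlapping groups, and the other 3 groups of genes plotted overlap between control and arsenite as well.

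The ssp genes code for small proteins with an MSP domain, and the ssq and sss genes form further families named for their restriction to sperm. Of these 13 genes, 12 had a mean under 0.5 RPKM. The highest was ssp-10, on chromosome IV from 9850702 to 9851031, with 15 and 3 reads in the controls and 10 and 7 with arsenite (1.07, 0.234, 0.748 and 0.473 RPKM). Both arsenite libraries thus lay between the controls. Next came ssp-16, with 2 and 0 reads in the controls and 1 and 0 with arsenite. The other 5 ssp genes had 1 read over all libraries, or none in the case of ssp-9. Among the ssq genes, ssq-1 had 8 and 15 reads in the controls and 10 and 17 with arsenite (0.264, 0.540, 0.346 and 0.532 RPKM), in both groups more in replicate 2. The reads of ssq-2 were 5, 3, 6 and 6 and those of ssq-4 were 5, 3, 3 and 4 (controls, then arsenite). Lowest of this family was ssq-3, with 2 reads in arsenite replicate 1 and none elsewhere. The reads of sss-1 were 2 and 1 in the controls and 1 and 1 with arsenite, and those of sss-2, which RefSeq lists as a pseudogene, were 1 and 1 and then 1 and 2. The summed counts of the 13 genes were 38 and 27 in the controls and 36 and 38 with arsenite, or 0.799, 0.61, 0.79 and 0.753 CPM, and the groups overlapped.

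Both sperm forms of protein phosphatase 1, which act in sperm meiosis and in the movement of sperm, were at a low level next to their general relatives. The gene gsp-4 had 15 and 15 reads in the controls and 15 and 13 with arsenite (0.389, 0.424, 0.408 and 0.319 RPKM). Its near copy gsp-3 had 0 and 2 reads in the controls and 5 and 1 with arsenite, and reads shared by both copies are in neither count. The paralogues gsp-1 and gsp-2, used in many tissues, had means of 129 and 89.2 RPKM in the same libraries.

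The spe and fer genes were more often detected than the msp genes, and 14 of the 18 had 10 or more reads over all libraries, against 2 of the 30 msp genes. The groups are not alike in this, as reads shared by msp copies are in no count and the transcripts differ in length. The part of this in the difference was not tested. Levels of the spe and fer genes are given by the step of sperm formation in which each gene acts. The highest was spe-39, which codes for a partner of the VPS33 proteins in vesicle transport and is expressed in many tissues besides the germ line. It lies on chromosome V from 6785451 to 6787864 and had 42.0 and 43.4 RPKM in the controls and 42.0 and 40.5 with arsenite, more than any other gene of the class in every library. Its 2 transcripts had 43.4 and 44.4 RPKM (1889 nt) and 39.04 and 41.3 RPKM (835 nt) in the controls, and 43.4 and 41.4 RPKM and 38.9 and 38.5 RPKM with arsenite. The myosin VI gene spe-15, which sorts cell contents between spermatid and residual body, had 308 and 297 reads in the controls and 304 and 309 with arsenite (2.44, 2.57, 2.52 and 2.32 RPKM).

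Of the genes of the fibrous body and membranous organelle, the structure that packs MSP in the spermatocyte, the casein kinase gene spe-6 had the most reads. These were 94 and 92 in the controls and 79 and 137 with arsenite (2.38, 2.54, 2.09 and 3.28 RPKM), so that the arsenite libraries lay on either side of both controls. The presenilin gene spe-4 had 24 and 13 reads in the controls and 13 and 15 with arsenite, with control replicate 1 (0.474 RPKM) above the other 3 libraries (0.269 to 0.281 RPKM). The palmitoyltransferase gene spe-10 had 1 to 5 reads in a library. The ferlin gene fer-1, needed for the fusion of the membranous organelles with the sperm surface, had 78 and 63 counts in the controls and 51 and 68 with arsenite. With its long transcripts (6049 and 6105 nt) this is only 0.132 to 0.192 RPKM. The annotated genes F43G9.15 and F43G9.18, without a row in the table, overlap exons of fer-1 on the opposite strand. Whether their reads enter the count of fer-1 was not tested. For spe-26, a kelch repeat gene that acts in the divisions of spermatocytes, the reads numbered 17 and 18 in the controls and 24 and 27 with arsenite (0.293, 0.338, 0.433 and 0.441 RPKM). It lies inside an intron of R10H10.3, on the opposite strand, which had a mean of 54.3 RPKM, and strands were not kept apart by the kit. Whether intronic reads of R10H10.3 enter its count was not tested.

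Among genes that turn the round spermatid into a crawling sperm, spe-27 had 19 and 10 reads in the controls and 9 and 13 with arsenite (1.30, 0.745, 0.644 and 0.841 RPKM). An annotated gene without a row in the table, C06E7.88, overlaps its exons on the same strand. The small gene spe-29 had 8, 6, 6 and 6 reads, and its exons overlap those of gon-1 on the opposite strand (mean 5.78 RPKM). The tyrosine kinase gene spe-8, spe-12 and spe-19 had 0 to 4 reads in a library. Genes for the contact with the egg were led by spe-41, a cation channel of the TRP family, with 80 and 85 reads in the controls and 65 and 86 with arsenite (0.895, 1.04, 0.762 and 0.912 RPKM). The gene spe-9, whose product carries EGF repeats on the sperm surface, had 18 and 19 counts in the controls and 16 and 29 with arsenite. The membrane protein genes spe-38 and spe-42 had 2 to 5 reads in a library, and the exons of spe-38 overlap those of impt-1 on the same strand (mean 28.3 RPKM). The gene spe-11, whose protein the sperm brings into the egg, had 1 to 3 reads.

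**Figure D3:**
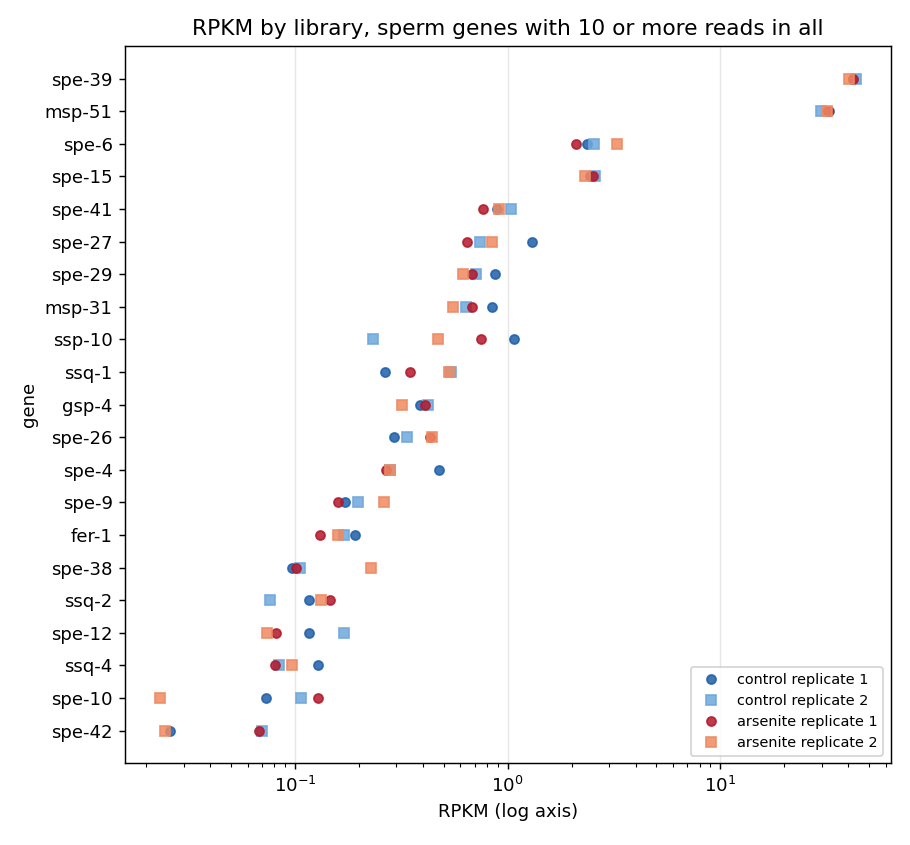
RPKM (x axis, log scale) in each of the 4 libraries for the 21 sperm genes with 10 or more reads over all libraries (y axis, sorted by mean). Only spe-39, at 40.5 to 43.4 RPKM, and msp-51, at 30.0 to 32.6 RPKM, lie above 10 RPKM.

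With arsenite no sperm gene passed the test. Only 14 of the 63 genes passed the filter on low counts of edgeR (9 spe or fer genes, 2 msp genes, ssp-10, ssq-1 and gsp-4), and the other 49 had too few reads to be tested. At an adjusted p under 0.05, edgeR's quasi-likelihood test called 0 of the 14, which is also the share among the 13776 genes in the fit (0%). Of the 14, 0 were higher and 0 were lower with an unadjusted p under 0.05, where all genes in the fit gave 2.16% higher and 5.05% lower (7.21% in either direction). The exact test of edgeR (0.392% of all genes higher, 0.617% lower), its likelihood ratio test (0.421% and 0.719%) and DESeq2 (0.0581% and 0.16%) called 0 of the 14, of which DESeq2 left 9 without an adjusted p. With the replicate number as a block the quasi-likelihood test called 0 of the 14 and 0.581% of all genes. Fitted log2 fold changes of arsenite over control were above 0 for 5 genes and below 0 for 9, with a median of -0.05, against 0.01 over all genes tested, of which 51.8% were above 0. The members that passed the filter do not stand for the whole class.

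The genes with the most reads gave the narrowest limits. For spe-39 the normalised counts were 3645 and 3868 in the controls and 3756 and 3710 with arsenite, both arsenite libraries lying between the controls, while in RPKM both lay below both controls. The fitted log2 difference was -0.01, with a 95% interval of -0.15 to 0.13 and a standard error of 0.064 (edgeR, adjusted p = 0.991). For msp-51 the normalised counts were 457.9 ± 18.7 (SD, n = 2) in the controls and 482.6 ± 3.89 (SD, n = 2) with arsenite, with 471.1 and 444.7 against 479.8 and 485.3 in the single libraries. Both arsenite libraries lay above both controls on this TMM scale, but not in RPKM, where control replicate 1 (32.6) was the highest. The fitted log2 difference was 0.08, with a 95% interval of -0.14 to 0.29 and a standard error of 0.095 (edgeR, adjusted p = 0.945). This value turned to -0.0039 after a correction for transcript length. Transcripts of up to 500 nt, to which msp-51 belongs with 454 nt, numbered 1137 in the fit, with a median log2 difference of 0.11. For spe-15 the log2 fold change was -0.0048 (95% interval -0.25 to 0.24).

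The largest fitted rise was that of spe-26, from 17.7 ± 2.14 normalised counts (SD, n = 2) in the controls to 25.3 ± 0.728 (SD, n = 2) with arsenite. The fitted log2 difference was 0.52, with a 95% interval of -0.15 to 1.18 and a standard error of 0.30 (edgeR, adjusted p = 0.801, the smallest of the 14). The largest fitted drops were those of spe-4, from 18.4 ± 6.36 to 13.9 ± 0.648 normalised counts (SD, n = 2 each), and of spe-27, from 14.4 ± 5.25 to 10.9 ± 2.22 (SD, n = 2 each). Their log2 fold changes were -0.42 (standard error 0.37) and -0.42 (standard error 0.42), with adjusted p of 0.911 and 0.930 from the same edgeR test. Both moved with the controls, to -0.0033 and 0.026 without control replicate 1 and to -0.72 and -0.73 without control replicate 2. For spe-6 the log2 fold change of 0.19 (95% interval -0.31 to 0.69, adjusted p = 0.943 from edgeR's test) was -0.20 without arsenite replicate 2 and 0.48 without arsenite replicate 1. For spe-9 it was 0.25, but -0.18 where arsenite replicate 2 was left out and 0.57 where arsenite replicate 1 was. The log2 fold changes of fer-1 and spe-41 were -0.27 (adjusted p = 0.880) and -0.16 (adjusted p = 0.945), by edgeR's quasi-likelihood test as well. Leaving out single libraries moved fer-1 from -0.12 (without arsenite replicate 1) to -0.43 (without arsenite replicate 2) and spe-41 from -0.018 (without arsenite replicate 1) to -0.31 (without arsenite replicate 2).

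Groups that did not overlap were found for 2 genes with arsenite above (msp-51 and spe-26) and for 1 with arsenite below (fer-1), out of the 14, against 17.1% and 19.1% of all genes tested. These are counts on the TMM scale, and in RPKM msp-51 overlapped while spe-39 had arsenite below. Among the genes left out by the filter, msp-56 (reads of 0 and 0 in the controls, 2 and 2 with arsenite) and msp-78 (0 and 0, then 3 and 1) had the smallest p when edgeR was run without the filter, with adjusted p of 0.847 and 0.848. These are 4 reads each in all, and no fold is given for them. The summed counts of all 63 genes, scaled by TMM, were 102.6 and 107.3 CPM in the controls and 105.1 and 105.1 with arsenite. Scaled to the library total alone they were 106 and 106 against 105 and 102 CPM, and those of the spe and fer genes were 94.2 and 95.8 against 92.8 and 90.8 CPM, with arsenite below, whereas by TMM the spe and fer sums were 91.0 and 96.5 against 92.9 and 93.3 and overlapped. By TMM, and without spe-39, msp-51 and spe-15, the sums of the remaining 60 genes were 8.71, 8.65, 8.18 and 9.44 CPM in the same order, with the arsenite libraries on either side of both controls.

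**Figure D4:**
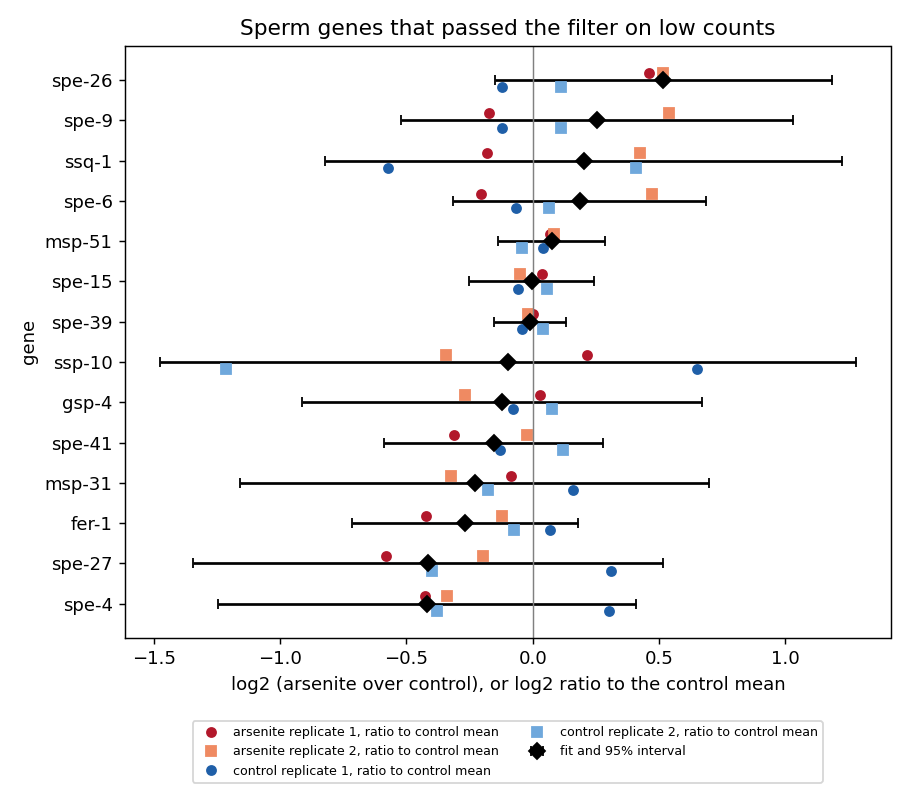
Log2 fold change of arsenite over control with its 95% interval (black) for the 14 sperm genes that passed the filter (y axis), and the log2 ratio of each library to the mean of both controls (coloured points, pseudocount of 1). Every interval spans 0, and the narrowest are those of spe-39, msp-51 and spe-15.

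Sperm-related genes outside the naming rule were mostly at low levels as well. Of 33 gene names, listed for a known role or expression in sperm, 31 were matched to a gene in the table outside the rule. Of these genes, 28 lay under 1 RPKM and 8 had no read. The names peel-1 and trp-3 were not matched, which does not show that these genes are absent under another name. The exceptions were zipt-7.1 (listed as hke-4.1, 52.5 RPKM), a zinc transporter needed for sperm activation, and the RNA-binding CPEB genes cpb-1 (27.0 RPKM) and fog-1 (8.39 RPKM), which act early in the germ line. Reads of the 10 nspd genes, a family of small sperm-enriched peptides, summed to 14 and 10 in the controls and 20 and 23 with arsenite. For the PDZ domain genes smz-1 and smz-2 they summed to 25 and 13 in the controls and 24 and 18 with arsenite. The 3 genes of the sperm chromatin proteins spch-1 to spch-3 had 1 and 2 reads in the controls and 8 and 7 with arsenite, and the 4 MSP domain genes msd-1 to msd-4 had 2 and 0 against 4 and 4. These family sums were drawn up after the counts were seen and were not tested. Both arsenite libraries lay above both controls for nspd, spch and msd but not for smz. The same held on the TMM scale for 17.1% of all genes tested. Over all 31 matched genes the reads summed to 5374 and 5082 in the controls and 5266 and 5927 with arsenite, and the groups overlapped. Most of these reads came from zipt-7.1, cpb-1 and fog-1. Of 22 further genes with such names in RefSeq but other names in the table, looked up after the counts were seen, 18 lay under 1 RPKM. The exceptions were spe-48 (listed as Y51F10.10, 30.5 RPKM), ssp-37 (W02D9.5, 15.7 RPKM), spe-44 (tag-347, 11.1 RPKM), a transcription factor of spermatocytes, and spe-5 (tag-300, 10.99 RPKM), a subunit of the vacuolar proton pump. Genes of the spermatheca, where sperm are stored, ranged from 1.62 RPKM (sth-1) to 135 RPKM (the filamin gene fln-1).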

How the data were processed

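RNA of whole worms was sequenced in 4 libraries (single reads of 76 nt, mRNA-Seq kit without strand marks). The authors aligned them by Bowtie against the genome plus a set of exon junctions and counted only unique hits on RefSeq transcripts. CASAVA and the build WBcel235 stand in the submitters' processing notes. Program versions: not given in the sources used here. Deposited were raw read counts per gene and transcript, and RPKM values, both made by the authors. Levels are compared between genes in RPKM. The test of the counts was that of edgeR 4.0.16 (R 4.3.3; filterByExpr, TMM, glmQLFit, glmQLFTest, condition as the only term, Benjamini-Hochberg over all 13776 genes tested), after a test on simulated data. DESeq2 1.42.0, edgeR's exact and likelihood ratio tests, other scalings, filters, a length correction (loess), the replicate number as a block and leaving out each library were alternatives. Normalised counts are counts over the TMM-scaled library size, times its mean. Standard errors were taken as the absolute log2 difference divided by the root of F. Poisson intervals cover counting error only. Positions come from Ensembl release 115 for 60 genes and RefSeq for 3, both on WBcel235, and 58 of the 60 agree in position. Genes, lists and tests were chosen with earlier results of these data known. Values per library are given for the genes with the 2 highest RPKM values in each of msp, ssp, ssq, sss and spe with fer, gsp-3, gsp-4, the 4 genes with the smallest p in each direction and any gene called, with spe and fer genes of known role at least by range and others by counts. The result of 1 gene is not reported here.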

Additional observations from a re-analysis of the deposited data

How the results depend on the processing

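The 15 alternatives run also called 0 sperm genes, which says little of stability, as the main test called 0 of all genes and DESeq2 left 9 of the 14 sperm genes without an adjusted p. In 4 of them a group has a single library, assumed to vary like the other group. Only without arsenite replicate 1 did a sperm gene (1) reach an unadjusted p under 0.05. The median log2 fold change of the genes tested, -0.0536, was 0.0749 without the filter on low counts, which adds the genes with few reads, and -0.1354 to 0.0033 with 1 library left out. The log2 ratio of the summed level, 0.0017, was -0.0369 when scaled by library size only and -0.0322 to 0.0343 when a library was left out, lowest without control replicate 1 and highest without control replicate 2. Directions turned for msp-51 with the length correction (-0.0039, and -0.0023 with the replicate block as well), for spe-6 (-0.2028) and spe-9 (-0.1755) without arsenite replicate 2 and for spe-27 (0.0262) without control replicate 1, the other ends of their ranges over single libraries left out being 0.4821, 0.5697 and -0.7256. The cause of these changes was not tested. The replicate numbers are not shown to pair the libraries (correlation of deviations 0.049 across genes). With the replicate block 0 sperm genes and 80 of all genes were called, and the median was -0.017. A restriction to genes with uniquely mappable reads was not run. Counts of 0 to 5 reads limit what can be said of most msp genes.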
